A study of Homo sapiens with 6 samples.

Results

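The genes described are 10 genes of prostaglandin synthesis, reception and breakdown, chosen by symbol from a fixed list: PTGS1, PTGS2, PTGES, PTGES2, PTGES3, PTGIS, PTGER2, PTGER4, PTGR1 and HPGD. All 10 are listed among the 24462 gene symbols of the count files, each in a single entry. The study set 1CT, a line of human colon epithelial cells immortalized with a telomerase transgene and labelled WT, beside 1CT-A, a derivative depleted of APC that carries the genotype label APC KD. There were 3 libraries of each line, labelled as made with a Quant-Seq kit, and all cells were untreated. Kits of that name are known for reading the 3′ ends of polyadenylated RNA, which could not be checked from gene counts. Both lines grew in the same medium with 20 ng/ml epidermal growth factor, 1 μg/ml hydrocortisone, 10 μg/ml insulin, 2 μg/ml transferrin, 5 nM sodium selenite and 2% FBS, the doses being those of the labels. The sources used here name no control vector for 1CT and do not say whether 1CT-A is a clone, so the loss of APC and any other difference between the lines cannot be told apart.

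Prostaglandins are short-range lipid signals made from arachidonic acid. A phospholipase frees the fatty acid, the cyclooxygenases PTGS1 and PTGS2 turn it into prostaglandin H2, and terminal synthases convert that intermediate into prostaglandin E2, prostacyclin, thromboxane and the others. Prostaglandin E2 acts through the receptors EP1 to EP4 (PTGER1 to PTGER4), of which EP2 and EP4 raise cyclic AMP through the stimulatory G protein, and HPGD and PTGR1 inactivate it. In the colon this pathway is known for the induction of PTGS2 and the loss of HPGD in many adenomas and carcinomas, and for the lowering of adenoma number by cyclooxygenase inhibitors in carriers of APC mutations.

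The windows upstream of 3 of the genes are shown because PTGS2 is the inducible cyclooxygenase and because the receptor genes PTGER2 and PTGER4 moved in opposite directions. Each sequence is the 250 bases before the RefSeq start in GRCh38.p14, on the gene's own strand. Capitals mark matches on either strand to the core of the cAMP response element (TGACG), the TATA box (TATAAA), the GC box (GGGCGG) and the CCAAT box (CCAAT). No match overlapped a match to another of these 4 motifs.
PTGS2, chr1:186680424-186680673, minus strand: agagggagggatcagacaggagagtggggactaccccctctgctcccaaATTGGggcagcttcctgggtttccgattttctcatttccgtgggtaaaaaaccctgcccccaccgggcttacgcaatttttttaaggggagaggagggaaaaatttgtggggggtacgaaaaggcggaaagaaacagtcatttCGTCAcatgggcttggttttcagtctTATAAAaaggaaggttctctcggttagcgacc
PTGER2, chr14:52314062-52314311, plus strand: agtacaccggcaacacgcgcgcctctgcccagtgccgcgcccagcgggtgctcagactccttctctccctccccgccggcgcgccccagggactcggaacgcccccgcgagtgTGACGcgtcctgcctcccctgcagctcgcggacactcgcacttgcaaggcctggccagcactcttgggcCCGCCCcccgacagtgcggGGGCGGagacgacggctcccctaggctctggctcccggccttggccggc
PTGER4, chr5:40679665-40679914, plus strand: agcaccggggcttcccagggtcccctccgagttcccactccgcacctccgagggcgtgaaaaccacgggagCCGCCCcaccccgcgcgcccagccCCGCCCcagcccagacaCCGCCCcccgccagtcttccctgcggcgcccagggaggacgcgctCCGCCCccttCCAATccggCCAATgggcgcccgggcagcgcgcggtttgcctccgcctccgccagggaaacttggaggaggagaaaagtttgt

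The PTGS2 window held a TATA box from 32 to 27 bases before the start, a motif found in 10.7% of the 35116 windows of the same length in the table. It also held the core of the cAMP response element, which 21.2% of all windows hold, from 58 to 54 bases before the start and on the opposite strand. The PTGER2 window held the same core from 137 to 133 bases before the start and 2 GC boxes. The PTGER4 window held 4 GC boxes and 2 CCAAT boxes and no match to the core. GC boxes were found in 42.6% and CCAAT boxes in 32.0% of all windows. A window was given for 9 of the 10 genes. These matches describe the letters of the windows and say nothing of binding.

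Between 7788679 and 8452258 reads were counted per 1CT library and between 11158108 and 12602988 per 1CT-A library. Levels are given as CPM, counts per 1000000 counts in the library's file, and 3 counts, equal to 0.355 to 0.385 CPM in 1CT libraries and 0.238 to 0.269 CPM in 1CT-A libraries, were taken as the smallest visible level, a limit that covers counting error only. APC, the depleted gene, was at 46.6 ± 2.75 CPM in the 1CT libraries and at 31.9 ± 2.21 CPM in those of 1CT-A (SD, n = 3 each), with no overlap between the lines, so it was lowered and not lost. Markers did not match the epithelial label in either line, since EPCAM, VIL1, CDX1 and MUC2 had no count in any library, and 6 of the 10 colon epithelial markers had at most 3 counts in every library. The keratin genes KRT18, at 11.2 and 5.06 CPM in 1CT and 1CT-A, and KRT19, at 3.33 CPM in 1CT and with no count in 1CT-A, made up most of the list's sum. That sum ran from 13.4 to 17.4 CPM in the 1CT libraries and from 3.23 to 7.20 CPM in the others. The 10 fibroblast markers, with VIM and COL1A1 at their head, summed to 4717 to 5761 CPM in 1CT, against 4391 to 4705 CPM in 1CT-A. Its members moved apart, since 3 rose, COL3A1 from 47.8 to 253 CPM among them, and 4 fell, PDGFRB and THY1 among them. The summed level was 3.59 to 6.88 CPM against 1.17 to 2.55 CPM for the 6 endothelial markers, nearly all of it TEK, which fell, with CDH5 at 0 in every library. For the 8 immune markers it was 12.7 to 15.5 CPM against 9.44 to 10.4 CPM, nearly all of it CD68, which fell, with PTPRC, TYROBP and CD3E at 0 in every library. The part of these shifts in the values below was not tested, and in bulk RNA fewer cells that express a gene and less RNA per cell cannot be told apart.

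Of the 10 prostaglandin genes, 8 had enough counts to be tested. In 1CT-A, 6 rose, which are both cyclooxygenase genes, the synthase genes PTGES and PTGES3, the receptor gene PTGER2 and the inactivating enzyme gene PTGR1. The receptor gene PTGER4 fell, and PTGES2 did not pass the test. PTGIS and HPGD were too low to test. The test was the quasi-likelihood test of edgeR with Benjamini-Hochberg adjustment over 12514 genes at a threshold of 0.05, in which 25.0% of all genes tested were higher and 26.0% lower in 1CT-A, 51.0% together. With so many genes called in each direction, the count of called members alone does not set these genes apart. PTGS2 reached the minimum level of the filter in 2 of the 3 1CT libraries and the other 7 tested genes reached it in all 6 libraries. All 7 called genes had CPM values without overlap between the lines, which 31.8% of the tested genes had in the higher and 27.9% in the lower direction. At the thresholds of the study's methods, a 2-fold change and a p under 0.01 before adjustment, with the p taken from edgeR, PTGS1, PTGS2 and PTGER2 counted as higher, as did 3.80% of all genes, and PTGER4 as lower, as did 9.60% of all genes. With the per-gene two-tailed test that those methods name, PTGER2 alone counted as higher, as did 2.50% of all genes, and PTGER4 as lower, as did 6.56%. It was run here on log2 CPM after adding 1 CPM, a choice the methods do not give, which shrinks differences at low levels. PTGS2 passed in p (0.00442, per-gene two-tailed test), and its log2 difference of 0.978 fell just short of a 2-fold change.

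**Figure D1:**
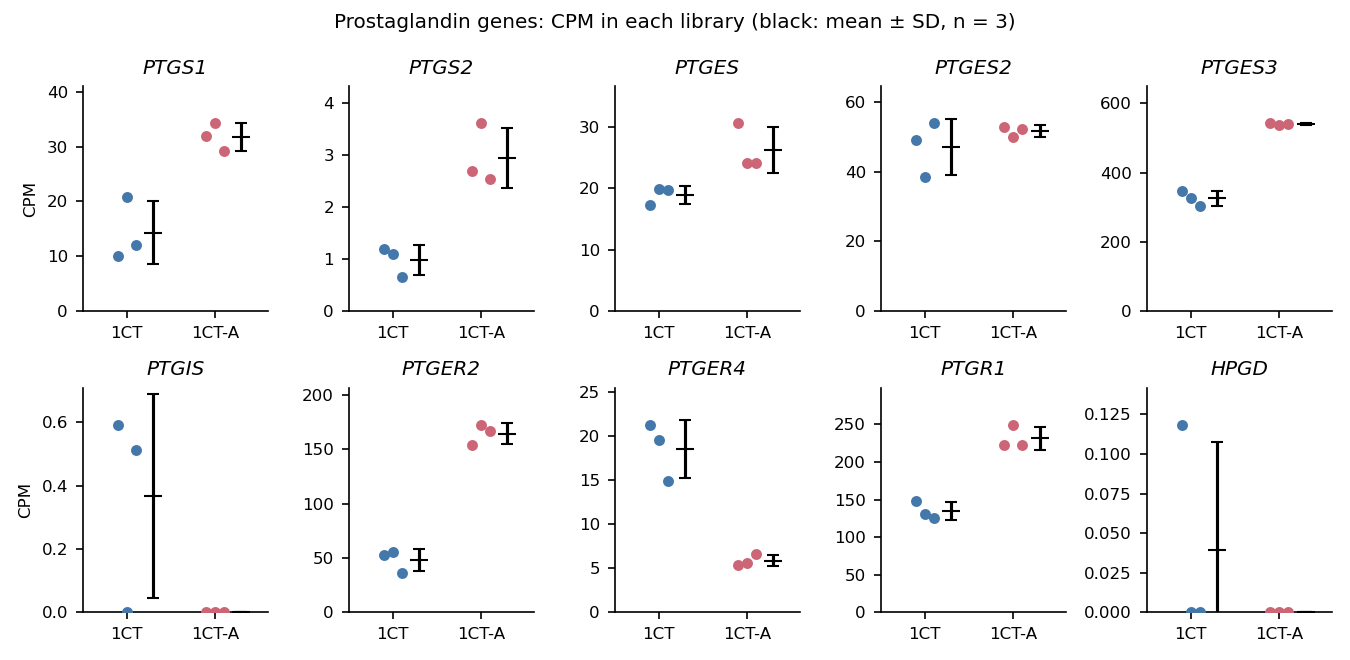
CPM (counts per 1000000 counts in the file, linear axes from 0, a separate scale per gene) of the 10 prostaglandin genes in 3 libraries of 1CT (blue) and 3 of 1CT-A (red), with the mean and SD of each line in black. PTGER2 ran from 36.5 to 55.2 CPM in 1CT and from 154 to 172 CPM in 1CT-A, PTGER4 lay lower in every 1CT-A library, and PTGIS and HPGD were at 0 in all 1CT-A libraries.

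Both cyclooxygenase genes were higher in 1CT-A. PTGS1, the constitutive enzyme, lies on chromosome 9 from 122370530 to 122395703 (GRCh38, plus strand). It was at 9.94, 20.9 and 12.1 CPM in the 3 1CT libraries and at 31.9, 34.2 and 29.1 CPM in the 3 1CT-A libraries. 1CT replicate 2 stood above the other 1CT libraries and below every 1CT-A library. The log2 fold change was 1.11 (standard error 0.20, edgeR adjusted p = 0.000401), a fold of 2.16. PTGS2, the inducible enzyme and the target of selective cyclooxygenase inhibitors, lies on chromosome 1 from 186671791 to 186680922 (minus strand). It was counted 10, 9 and 5 times in 1CT and 30, 41 and 32 times in 1CT-A, which is 1.18, 1.09 and 0.642 CPM against 2.69, 3.60 and 2.54 CPM. These are low counts in both lines, and the lowest 1CT-A library lay above the highest 1CT library. The log2 fold change was 1.54 (standard error 0.33, edgeR adjusted p = 0.00175), a fold of 2.90.

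No difference in the balance between the cyclooxygenase genes could be shown. PTGS2 made up 10.6%, 4.95% and 5.05% of the summed PTGS1 and PTGS2 counts of the 1CT libraries and 7.77%, 9.51% and 8.02% of those of the 1CT-A libraries. 1CT replicate 1 was the highest of all 6 libraries and the other 1CT libraries the lowest, so the lines overlapped. With so few PTGS2 counts the exact 95% binomial interval of 1CT replicate 1 ran from 5.22% to 18.7%. The means were 6.88 ± 3.26% and 8.43 ± 0.94% (SD, n = 3), a difference of 1.56 percentage points (exact permutation test, two-sided, p = 0.4, where the smallest p of 3 libraries against 3 is 0.1). Without 1CT replicate 1 the difference was 3.44 points, and it was 0.59 points without 1CT replicate 2 and 0.64 points without 1CT replicate 3.

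The prostaglandin E2 synthase genes moved unequally. PTGES3, which encodes a cytosolic synthase that is also the HSP90 cochaperone p23, lies on chromosome 12 from 56663341 to 56688408 (minus strand). It was at 347, 328 and 302 CPM in 1CT and at 542, 537 and 541 CPM in 1CT-A. The 1CT-A libraries lay within 2.55 CPM of each other as an SD, against 22.3 CPM in 1CT. Its log2 fold change was 0.69 (standard error 0.07, edgeR adjusted p = 2.37e-06). PTGES, the inducible microsomal synthase that is coupled to PTGS2, lies on chromosome 9 from 129738331 to 129753042 (minus strand). It was at 17.3, 19.8 and 19.8 CPM in 1CT and at 30.6, 24.1 and 24.1 CPM in 1CT-A, with 1CT-A replicate 1 above the other libraries of its line. The change was 0.43 on the log2 scale (standard error 0.13, edgeR adjusted p = 0.0122). It was 0.31 without 1CT-A replicate 1 (adjusted p = 0.0665) and 0.37 without 1CT replicate 1 (adjusted p = 0.0515), so the call was lost with either library left out. PTGES2, the other microsomal synthase, on chromosome 9 from 128120693 to 128128462, was at 49.2, 38.4 and 53.9 CPM in 1CT and at 53.0, 49.9 and 52.4 CPM in 1CT-A. The lines overlapped, and the log2 fold change was 0.10 (standard error 0.11, edgeR adjusted p = 0.511).

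Within a library, PTGES took 4.18%, 5.13% and 5.26% of the counts on the 3 synthase genes in 1CT and 4.89%, 3.95% and 3.91% in 1CT-A. The means of 4.86 ± 0.59% and 4.25 ± 0.55% (SD, n = 3) differed by -0.61 percentage points, which the exact permutation test did not separate (two-sided, p = 0.2). Leaving out 1CT replicate 1 gave -0.95 points and leaving out 1CT-A replicate 1 gave -0.93 points. PTGES3L-AARSD1 is a read-through of PTGES3L, a relative of PTGES3 at another locus, and AARSD1. It was at 39.9 ± 1.74 and 37.8 ± 1.49 CPM (SD, n = 3) and did not pass the test (edgeR adjusted p = 0.295). PTGES3L itself had at most 2 counts in a library, while AARSD1 was at 45.50 CPM in 1CT and 43.98 CPM in 1CT-A. The level of the read-through entry is therefore not read as that of a PTGES3 relative. How its reads divide between these genes was not tested.

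PTGIS, the prostacyclin synthase, on chromosome 20 from 49503874 to 49568137, had 5, 0 and 4 counts in the 1CT libraries and none in the 1CT-A libraries. Its 9 counts over 3 libraries come to 3 a library, the smallest visible level, and no fold is given. When genes with few counts were kept in the test, PTGIS was lower in 1CT-A (edgeR adjusted p = 0.00917). Low counts were lower in 1CT-A elsewhere too, since the 378 olfactory receptor symbols summed to 3.38 to 4.50 CPM in 1CT against 1.40 to 1.67 CPM in 1CT-A, and the part of this in the PTGIS values was not tested.

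**Figure D2:**
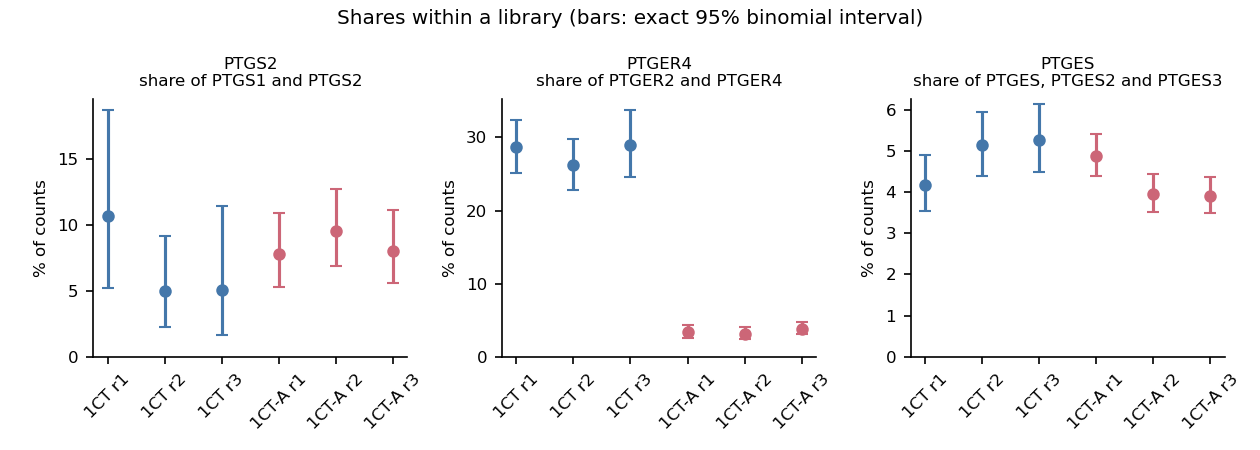
Share, in percent of counts, that PTGS2 took of PTGS1 and PTGS2, PTGER4 of PTGER2 and PTGER4, and PTGES of PTGES, PTGES2 and PTGES3, for each of the 6 libraries (blue 1CT, red 1CT-A), with exact 95% binomial intervals that cover counting error only. The PTGER4 share fell from a mean of 27.9% to 3.45% with no overlap, while the lines overlapped in the other shares.

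The genes of the cyclic AMP raising prostaglandin E2 receptors changed in opposite directions. PTGER2, the gene of EP2, lies on chromosome 14 from 52314305 to 52328598 (plus strand). It was at 53.0, 55.2 and 36.5 CPM in 1CT and at 154, 172 and 167 CPM in 1CT-A. Every 1CT-A library was far above every 1CT library, and 1CT replicate 3 was the lowest of all. The log2 fold change was 1.73 (standard error 0.12, edgeR adjusted p = 1.38e-07), a fold of 3.31. PTGER4, the gene of EP4, lies on chromosome 5 from 40679915 to 40693735 (plus strand). It was at 21.3, 19.6 and 14.9 CPM in 1CT and at 5.38, 5.62 and 6.59 CPM in 1CT-A. Again the lines did not overlap, with 1CT replicate 3 the lowest of its line. The log2 fold change was -1.70 (standard error 0.16, edgeR adjusted p = 2.36e-06), so the level was 3.25-fold lower in 1CT-A. TTC33 overlaps PTGER4 on the opposite strand in GENCODE 44, and the strand setting of the counting is not given, so reads of these genes could have been shared. TTC33 was at 5.92, 5.55 and 3.47 CPM in 1CT and at 6.36, 5.97 and 7.38 CPM in 1CT-A (edgeR adjusted p = 0.179).

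The ratio of these receptor genes does not depend on how libraries are scaled. PTGER4 made up 28.7%, 26.2% and 29.0% of the summed PTGER2 and PTGER4 counts in 1CT and 3.38%, 3.16% and 3.80% in 1CT-A. The exact 95% intervals of all 1CT libraries (22.7% to 33.7% at their extremes) lay above those of all 1CT-A libraries (2.44% to 4.69%). The means of 27.9 ± 1.54% and 3.45 ± 0.33% (SD, n = 3) differed by -24.5 percentage points (p = 0.1 in the two-sided exact permutation test, which is the lowest this design allows).

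Over the 6 libraries, the profile most like that of PTGER2, whose change was the largest of the tested prostaglandin genes in the edgeR fit, was taken as the smallest root mean square difference in log2 CPM, each gene centred on its own mean. PXK came first (0.0756), followed by DEPDC1B (0.0923) and FGFR4 (0.0932). PXK was at 30.4 ± 7.41 CPM in 1CT libraries and at 94.7 ± 5.30 CPM in 1CT-A libraries (SD, n = 3 each). The lead of PTGER2 over PTGER4 in size was not stable, since the log2 fold changes were 1.67 and -1.75 under upper quartile scaling and 1.58 and -1.82 without 1CT replicate 3. With 2 lines and 6 libraries these values mainly describe the size of the difference between the lines.

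Among the other prostanoid receptor genes, PTGER3 and PTGIR showed larger fold changes than PTGER2 and PTGER4. PTGER3, the gene of EP3, which lowers cyclic AMP through an inhibitory G protein, was counted 5 times in every library of 1CT and 99, 118 and 124 times in those of 1CT-A. This is 0.592, 0.604 and 0.642 CPM against 8.87, 10.4 and 9.84 CPM, and every 1CT library was near the lowest visible level. The log2 fold change was 3.92 (standard error 0.25, edgeR adjusted p = 6.85e-08). PTGIR, the gene of the prostacyclin receptor, which like EP2 and EP4 couples to the stimulatory G protein, was at 11.2, 13.4 and 12.5 CPM in 1CT and at 0.627, 0.351 and 0.476 CPM in 1CT-A. It was counted 95, 111 and 97 times in 1CT and only 7, 4 and 6 times in 1CT-A. Its log2 fold change was -4.68 (standard error 0.25, edgeR adjusted p = 1.48e-08), or 25.6-fold lower. PTGER3 and PTGIR each passed the filter on low counts through the line in which they were high.

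PTGDR2, the gene of the prostaglandin D2 receptor DP2, rose from 38.4 ± 2.61 to 68.6 ± 7.83 CPM (SD, n = 3), a difference of 0.80 on the log2 scale (standard error 0.10, edgeR adjusted p = 3.04e-05). Overlapping genes were looked up only for the members of the prostaglandin list. Whether PTGDR2 shares reads with a neighbouring gene was therefore not checked. PTGFR, the prostaglandin F receptor gene, was at 11.5 ± 1.06 and 10.5 ± 1.67 CPM (SD, n = 3) and did not pass the test (edgeR adjusted p = 0.393). The same held for TBXA2R, the thromboxane receptor gene, at 4.20 ± 1.47 and 2.90 ± 0.73 CPM (SD, n = 3, edgeR adjusted p = 0.125). PTGER1 had 2 to 7 counts in a library and PTGDR at most 1, too few to test. Of the 9 prostanoid receptor genes, EP2 and EP4 included, 7 were tested, of which 3 rose and 2 fell, beside 51.0% of all tested genes called in either direction.

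**Figure D3:**
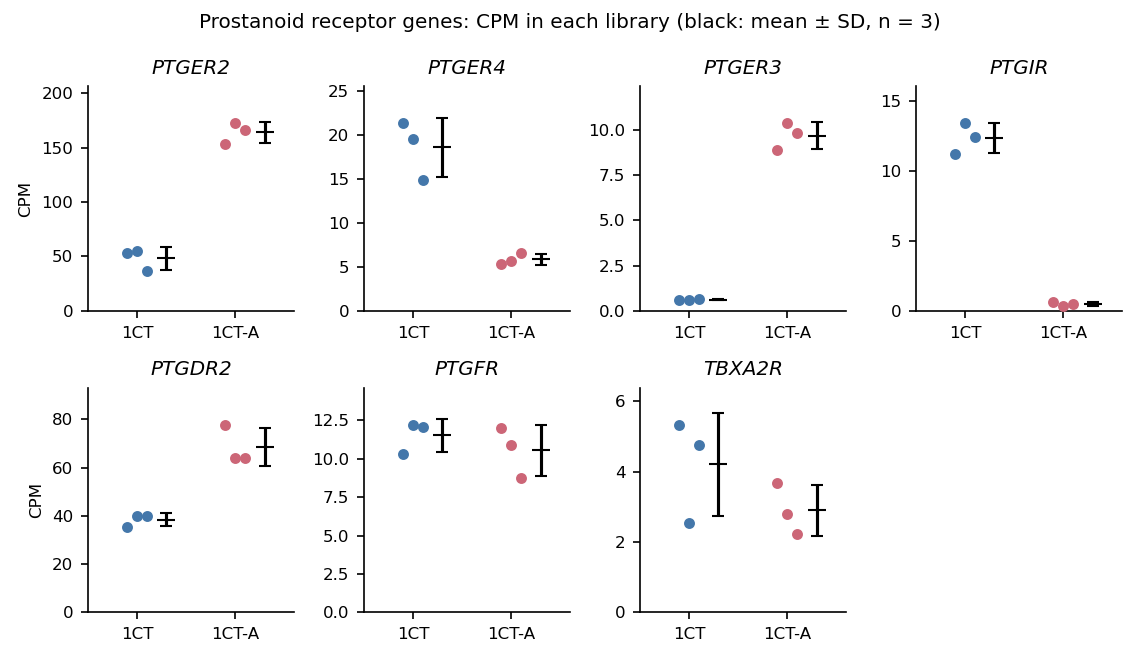
CPM (linear axes from 0, a separate scale per gene) of the 7 tested prostanoid receptor genes in the 1CT (blue) and 1CT-A (red) libraries, with the mean and SD of 3 libraries in black. PTGER2, PTGER3 and PTGDR2 were higher and PTGER4 and PTGIR lower in all 1CT-A libraries, while PTGFR and TBXA2R overlapped between the lines.

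The makeup of the receptor counts, a grouping chosen after the values were seen and therefore not tested, was read as the share of each gene in the 947 to 1189 counts on the 9 receptor genes of a 1CT library and the 2925 to 3262 counts of a 1CT-A library. These are shares of counts, and they are compared between the lines only. PTGER2 took 35.6 ± 4.86% in 1CT and 62.5 ± 3.41% in 1CT-A (SD, n = 3). PTGER4 went from 13.8 ± 1.59% to 2.23 ± 0.27%, and PTGIR from 9.24 ± 1.05% to 0.185 ± 0.054%. Summed over the genes of receptors that couple to the stimulatory G protein, which are PTGER2, PTGER4, PTGIR and PTGDR, the share was 62.0%, 61.4% and 52.5% in 1CT and 60.9%, 66.9% and 67.1% in 1CT-A. These sums of shares overlapped between the lines, although each of the 3 main genes in them did not. Overlapping shares do not mean equal levels. In mean CPM, PTGER2 rose from 48.2 in 1CT to 164 in 1CT-A, while PTGER4 fell from 18.6 to 5.86 and PTGIR from 12.4 to 0.485. The sums for the inhibitory G protein receptors PTGER3 and PTGDR2 also overlapped, with means of 29.2 ± 3.77% and 29.8 ± 2.76% (SD, n = 3). PTGER1, PTGFR and TBXA2R, which signal through calcium, together took 12.2 ± 1.87% in 1CT and 5.23 ± 0.88% in 1CT-A. A share also moves with the sum it is taken of, which was larger in every 1CT-A library, and the levels of PTGFR and TBXA2R did not pass the test while those of PTGER3 and PTGDR2 rose.

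**Figure D4:**
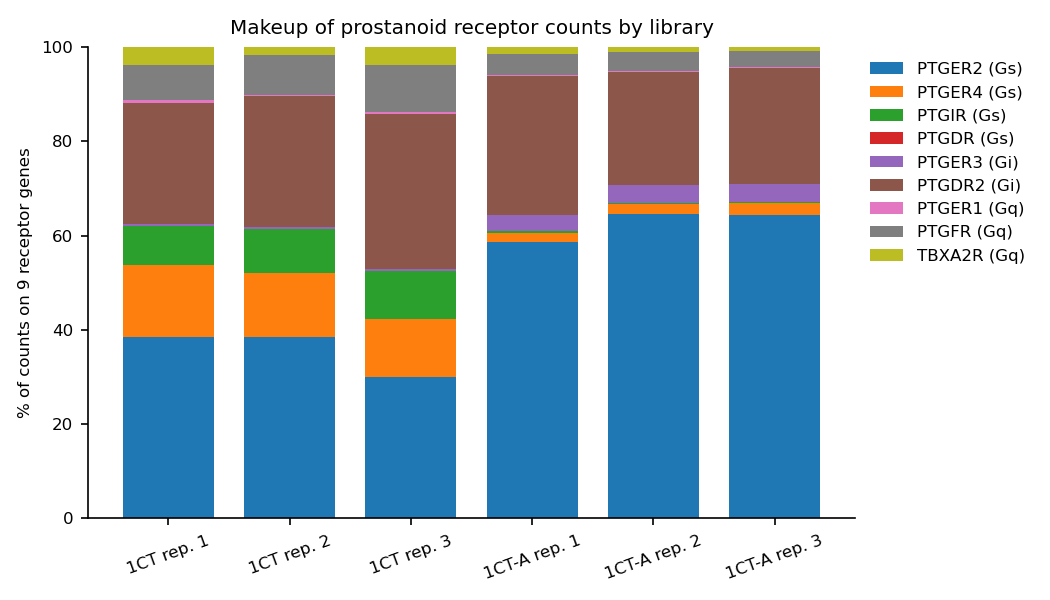
Stacked shares, in percent of the counts on 9 prostanoid receptor genes, for each of the 6 libraries, with the G protein class of each receptor in brackets (Gs stimulatory, Gi inhibitory, Gq calcium). PTGER2 took a mean of 35.6% in 1CT and 62.5% in 1CT-A, while PTGER4 went from 13.8% to 2.23% and PTGIR from 9.24% to 0.185%.

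Of the inactivating enzymes, PTGR1 and HPGD differed widely in level of detection. PTGR1, the reductase that acts on keto-prostaglandins after HPGD and on leukotriene B4, lies on chromosome 9 from 111549722 to 111599893 (minus strand). It was at 148, 130 and 126 CPM in 1CT and at 223, 249 and 223 CPM in 1CT-A. The lines did not overlap, and the log2 fold change was 0.74 (standard error 0.08, edgeR adjusted p = 6.38e-06), a fold of 1.67. ZNF483, which overlaps PTGR1 on the opposite strand, had at most 14 counts in a library. HPGD, the dehydrogenase that starts the breakdown of prostaglandin E2, on chromosome 4 from 174490175 to 174523154, had 1 count in 1CT replicate 1 and none in the other 5 libraries. A count of 0 allows up to 0.385 CPM in 1CT and 0.269 CPM in 1CT-A, so HPGD was not detectable in either line at this depth and no comparison is possible.

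The rest of the pathway was read from lists of known genes. Among 17 genes that free or re-esterify arachidonic acid, 11 were tested, with a median log2 fold change of -0.21, beside -0.01 over all tested genes. In 1CT-A, 3 were higher and 4 lower, beside 25.0% and 26.0% of all tested genes. Those that rose were ANXA1, which encodes the phospholipase inhibitor annexin A1 (log2 fold change 0.73), and ACSL4 and LPCAT3 (0.63 each), which return arachidonic acid to phospholipids. Those that fell were the lipase genes MGLL (-0.74), DAGLB (-0.80), PLA2G15 (-0.77) and PLA2G16 (-0.73). PLA2G4A, the cytosolic phospholipase A2 that supplies the cyclooxygenases, was at 0.979 ± 0.117 and 1.33 ± 0.172 CPM (SD, n = 3) and did not pass the test (edgeR adjusted p = 0.353). The secreted phospholipase genes PLA2G2A, PLA2G5 and PLA2G10 had no count in any library.

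Among 8 further prostanoid synthase genes, 6 were tested, with a median log2 fold change of 0.25. Of these, 3 rose and none fell, beside 25.0% and 26.0% of all tested genes. TBXAS1, the thromboxane synthase, rose from 4.61, 5.19 and 3.72 CPM to 14.1, 14.7 and 15.9 CPM (log2 fold change 1.68, standard error 0.16, edgeR adjusted p = 2.23e-06). AKR1C3, which makes prostaglandin F among other products, rose from 6.51, 4.95 and 4.75 CPM to 16.9, 18.3 and 21.3 CPM (log2 fold change 1.76, standard error 0.16, edgeR adjusted p = 1.71e-06). Its near-identical copies were more abundant and rose more, AKR1C1 from 33.8 to 531 CPM and AKR1C2 from 24.7 to 224 CPM, and reads could have been divided between them, so the AKR1C3 value is uncertain. CBR1, a carbonyl reductase that converts prostaglandin E2, rose by 0.35 on the log2 scale. The prostaglandin D2 synthase genes PTGDS and HPGDS had at most 4 and 0 counts in a library.

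Of 8 carrier and further inactivation genes, 5 were tested, with a median log2 fold change of -0.39. Of these, 1 rose and 2 fell, beside 25.0% and 26.0% of all tested genes. The organic anion carrier gene SLCO4A1 was at 2.48, 3.98 and 5.01 CPM in 1CT and at 1.08, 0.439 and 0.476 CPM in 1CT-A (log2 fold change -2.55, standard error 0.40, edgeR adjusted p = 0.000160). SLCO4A1 passed the filter on low counts through 1CT, the line in which it was high. SLCO3A1 differed by -1.23 on the log2 scale (standard error 0.29, edgeR adjusted p = 0.00350). SLCO2A1, the prostaglandin uptake carrier gene, had at most 1 count in a library. ABCC4, the prostaglandin exporter gene, was at 27.3 ± 1.16 and 30.6 ± 1.56 CPM (SD, n = 3) and did not pass the test (edgeR adjusted p = 0.286). In the neighbouring lipoxygenase branch, 4 of 14 genes could be tested, with a median log2 fold change of -0.42. Beside the same shares of all tested genes, none rose and 2 fell. These were MGST2 (log2 fold change -1.33, standard error 0.11, edgeR adjusted p = 7.94e-07), which can make leukotriene C4, and the leukotriene B4 receptor gene LTB4R (-0.56). ALOX5 and ALOX15 had no count in any library.

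Downstream of EP2 and EP4, 25 of 29 genes of the cyclic AMP pathway were tested, with a median log2 fold change of 0.02. Of these, 4 rose and 5 fell, beside 25.0% and 26.0% of all tested genes. GNAS, the stimulatory G protein subunit, was at 94.5 ± 17.9 and 98.3 ± 9.72 CPM (SD, n = 3, edgeR adjusted p = 0.912), and none of the 4 tested adenylyl cyclase genes passed the test. Of 6 tested phosphodiesterase genes, whose products break down cyclic AMP, 3 fell and none rose, beside 26.0% of all tested genes that fell, and PDE3A and PDE4B passed the filter on low counts only through 1CT. PDE4A fell from 43.9 ± 3.28 to 25.5 ± 1.46 CPM (SD, n = 3). PDE3A had 14, 9 and 11 counts in 1CT and none in 1CT-A, and against the mean level of 3 counts there it was at least 5.40-fold lower. PDE4B differed by -1.38 on the log2 scale (standard error 0.45, edgeR adjusted p = 0.0213), and the adjusted p was 0.0516 in DESeq2, and in edgeR 0.129 without 1CT replicate 2 and 0.0832 without 1CT-A replicate 1. The inhibitory subunit genes moved apart, with GNAI1 at a log2 fold change of 0.74 and GNAI2 at -0.67. ATF1, a relative of CREB, rose by 1.14 and PRKAR2B, a regulatory subunit of protein kinase A, by 1.03.

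The last list held 11 genes of proteins known to bind AU-rich elements of mRNAs such as that of PTGS2, of which 6 rose and 3 fell, beside 25.0% and 26.0% of all tested genes, with a median log2 fold change of 0.43. HNRNPD (AUF1) rose by 1.23 and ELAVL1 (HuR), which stabilizes such mRNAs, by 1.04, from 104 ± 16.1 to 219 ± 27.9 CPM (SD, n = 3). ZFP36 (tristetraprolin), which promotes their decay, was at 13.3, 8.45 and 2.70 CPM in 1CT and at 14.4, 19.9 and 17.4 CPM in 1CT-A. Its log2 fold change was 1.03 (standard error 0.32, edgeR adjusted p = 0.0162), with an adjusted p of 0.145 in DESeq2 and of 0.0656 in edgeR without 1CT-A replicate 2. The value moved with single 1CT libraries, to 1.57 without replicate 1 and to 0.64 without replicate 3. CELF2, which can bind PTGS2 mRNA and restrain its translation, was at 10.8, 13.3 and 14.0 CPM in 1CT and at 0.269, 0.439 and 0.952 CPM in 1CT-A. Its log2 fold change was -4.49 (standard error 0.30, edgeR adjusted p = 9.46e-08), and it passed the filter through 1CT. Without 1CT-A replicate 3, the highest of its line, the value was -5.14.

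**Figure D5:**
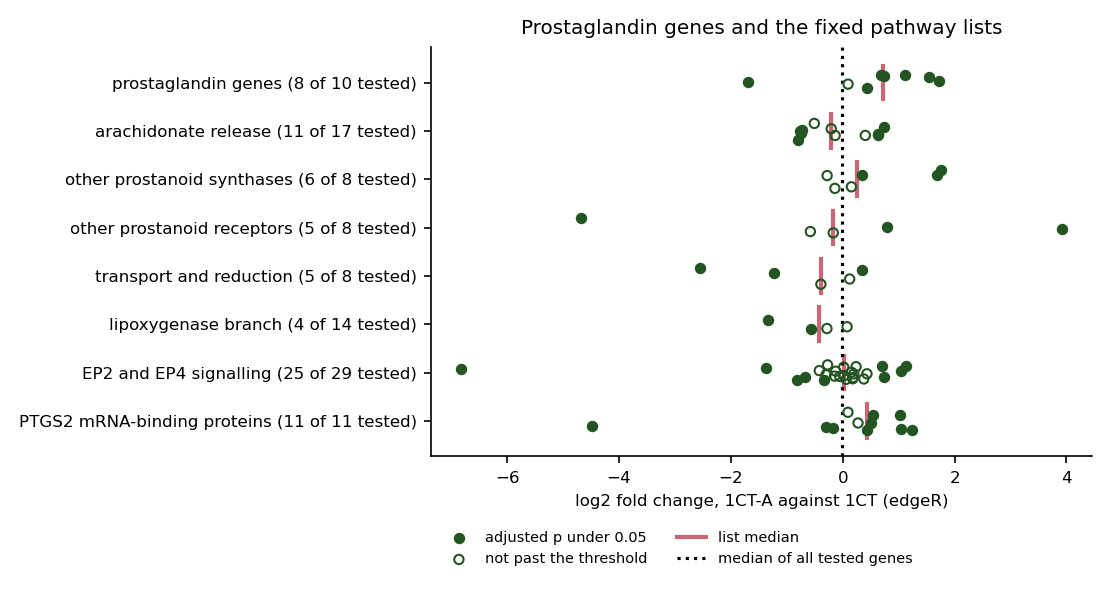
Log2 fold change (edgeR, above 0 where 1CT-A is higher) for each tested gene of the prostaglandin list and the 7 pathway lists, filled where the adjusted p was under 0.05, with each list's median in red and the median of all tested genes, -0.01, dotted. PTGER3 lies farthest to the right at 3.92 and PDE3A farthest to the left, where the fitted value of a gene with no count in 1CT-A is not a bound.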

How the data were processed

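Gene expression was measured in 3 libraries of 1CT and 3 of 1CT-A. The authors deposited raw counts, whole numbers of reads per gene symbol in 25737 entries for 24462 symbols, without normalization or pooling. The labels name a Quant-Seq kit. The study's methods describe RNA sequencing at a microarray service and also mention a cDNA microarray. The values are whole counts. The submitters' processing notes name Bowtie2, edgeR and the build hg19, with no role or version. The counter, annotation, read filters and strand setting are not given in the sources used here. Bowtie2 does not split reads over introns, and reads of 3′ ends, if the libraries hold only those, depend on where a transcript ends. Entries of a repeated symbol were summed. 

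Counts were tested with edgeR 4.0.16 in R 4.3.3 (TMM, factors from 0.975 to 1.02, filterByExpr with a minimum count of 10, quasi-likelihood test, no block). Benjamini-Hochberg adjustment ran over the 12514 genes tested. The standard error is the log2 fold change divided by the root of F. Shares were compared with exact two-sided permutation tests. The edgeR step was tested on simulated counts, with the same dispersion for every gene and far fewer changed genes than were called here. The other steps had no such test.

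The members and lists were chosen with earlier results of these data known. Named genes are all members, the listed genes called with an absolute log2 fold change of at least 1 (at most 4 each way per list), and the 3 profiles nearest to the most changed member. Other names were chosen after their values were seen. Nothing says that replicates were separate cultures, so p-values measure only the spread between libraries. Replicates differed by more than counting noise (chi-square per degree of freedom from 3.11 to 9.00). Gene positions are from GENCODE 44 on GRCh38, not the build of the counts. Alternatives were other scalings and filters, DESeq2 1.42.0, limma-voom (limma 3.58.1), a replicate block, stricter thresholds and each library left out.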

Additional observations from a re-analysis of the deposited data

How the results depend on the processing

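Under the 14 alternatives to the fit, PTGS1, PTGES3, PTGER2, PTGER4, PTGR1 and APC stayed on the same side of the threshold with the same direction, and so did PTGS2 under the 13 in which it was tested. With each library left out, the log2 fold change ran from 0.90 to 1.49 for PTGS1, from 1.34 to 1.70 for PTGS2, from 1.58 to 1.83 for PTGER2 and from -1.82 to -1.59 for PTGER4. That of PTGES ran from 0.31 to 0.50 and that of PTGES2 from -0.0338 to 0.22, the negative value being the one without 1CT replicate 2, where the adjusted p was 0.801 in edgeR. At the thresholds of the study, 3 members were higher in the edgeR fit and 1, PTGER2, with the per-gene two-tailed test that its methods name. That test was run after adding 1 CPM, and PTGS2 fell just short of the fold in it. Without a filter, 2 members were lower, PTGIS being the added one, and 2 other prostanoid receptor genes. In that fit 3564 of all 19169 genes tested were lower. With at least 10 counts in every library, 1 of the other prostanoid receptor genes was higher and 0 lower. In that setting 1 carrier gene and 3 genes of the cyclic AMP pathway were lower. These counts fell because the filter removed PTGER3, PTGIR, SLCO4A1, PDE3A and PDE4B, as it did PTGS2, so they were not tested there. The carrier list had 0 higher genes at an adjusted p under 0.01. With each library left out, that count ran from 0 to 1, and the count of lower receptor genes from 1 to 2. A fit blocked on the replicate number gave log2 fold changes of 1.15 for PTGS1, 0.43 for PTGES and 0.11 for PTGES2, and no call on a member changed. Same-numbered libraries did not deviate together over 8224 genes (correlations of -0.152, 0.211 and -0.134), and the numbers were not taken as pairs. The 3 shares kept their direction under all alternatives. Depth limits what can be said of PTGS2, PTGIS and HPGD.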
